A study of Mus musculus with 12 samples.

Results

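Mature basophils were compared between 2 organs of the mouse, the spleen and the bone marrow (BM), by bulk RNA sequencing. The comparison used 6 of the 12 libraries of the study, namely 3 of spleen mature basophils (SP1, SP2 and SP3) and 3 of BM mature basophils (BM1, BM2 and BM3), and the genes were those that passed an expression filter, 15083 of the 32227 in the table. All mice were untreated wild-type C57BL/6J, their age is not stated, and the cells of each library were pooled across several mice, so that p-values measure the spread between pools. Mature basophils of both organs were sorted by flow cytometry as CD200R3+ c-Kit- CD49b+ cells that were CD34-, CLEC12A-low and CD9-high. The other 6 libraries, basophil progenitors (BaPs) and pre-basophils of the BM, entered the expression filter, the scaling and the estimate of the spread. They were not part of the contrast, and their levels are given for orientation without a test. BaP replicate 3 stood apart from the other 11 libraries, with 0.309% of its counts in haemoglobin genes (at most 0.0256% elsewhere) and 17009 CPM of Prss34 against 48653 and 45396 CPM in the other BaP libraries.

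Basophils are rare granulocytes that arise in the BM, circulate in the blood and lodge in the spleen. They carry the high-affinity IgE receptor, store histamine and serine proteases in granules, and on activation release cytokines and chemokines such as IL-4 and IL-6. Granule protease genes and cell cycle genes are known to be transcribed during granulocyte maturation in the BM, whereas immediate-early genes, chemokines and feedback inhibitors of NF-kB change quickly in cells that receive a stimulus, including the handling of cells during isolation.

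Levels are in CPM, the counts of a gene scaled to a common library size after correction for composition. Fold changes are log2 differences, spleen minus BM, from the edgeR quasi-likelihood model, with the standard error (SE), and a gene was called at a Benjamini-Hochberg adjusted p under 0.05. Library totals were 3740815, 4288953 and 6329357 counts for BM1 to BM3, and 6344238, 6376774 and 8151030 counts for SP1 to SP3. The spleen libraries were thus the deeper ones, and 24041 to 24704 genes were detected in them against 21911 to 23438 in BM libraries. The floor, the level of 3 counts that a count of 0 still permits, lay at 0.398 to 0.495 CPM in spleen and 0.562 to 0.955 CPM in BM libraries, for counting error only. The ribosomal RNA gene in the table took 5.73 to 7.35% of counts in spleen and 7.57 to 7.65% in BM libraries. In bulk samples, fewer cells of a type and less RNA per cell cannot be told apart.

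Of the 15083 genes tested, 1181 (7.83%) were called, a share to set beside the counts given for gene lists below. The lists and their members were chosen with earlier results of these data known, so their counts and medians are descriptive. Of the 1181 called genes, 477 were higher (3.16% of genes tested) and 704 were lower (4.67%) in spleen than in BM mature basophils. At least 2-fold differences were found in 471 of them (202 higher and 269 lower). All 3 spleen values lay on one side of all 3 BM values in 5089 genes (33.7%), among them 1178 of the 1181 called genes. For a called gene, a lack of overlap thus adds little to the call. Lower genes made up 59.6% of the calls, but 39.4% (428 of 1085) when libraries were scaled by library size alone, a scaling that shifted the median log2 difference over the genes tested from 0.0052 to 0.135. With 1 library left out at a time, between 241 (without SP3) and 757 (without SP1) genes were called. The count was 249 without BM1, 448 without BM3, 459 without BM2 and 543 without SP2, and 181 genes (51 higher and 130 lower) were called in all 6 of these fits. These fits kept BaP replicate 3. With all 6 mature libraries and without BaP replicate 3, 2653 genes were called (1176 higher and 1477 lower, 55.7% lower), among them 1179 of the 1181. A gene given here as not called may therefore pass in that fit, and where a named gene did, its adjusted p stands beside it. When the test asked for a change beyond 2-fold, 11 genes passed, of which Prss34, Gzmb, Gzmc, Tnf, Ccnb2 and Cenpf were lower in the spleen. The 5 higher ones were H2-Aa, H2-Ab1, H2-Eb1 and 2 predicted genes.

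**Figure D1:**
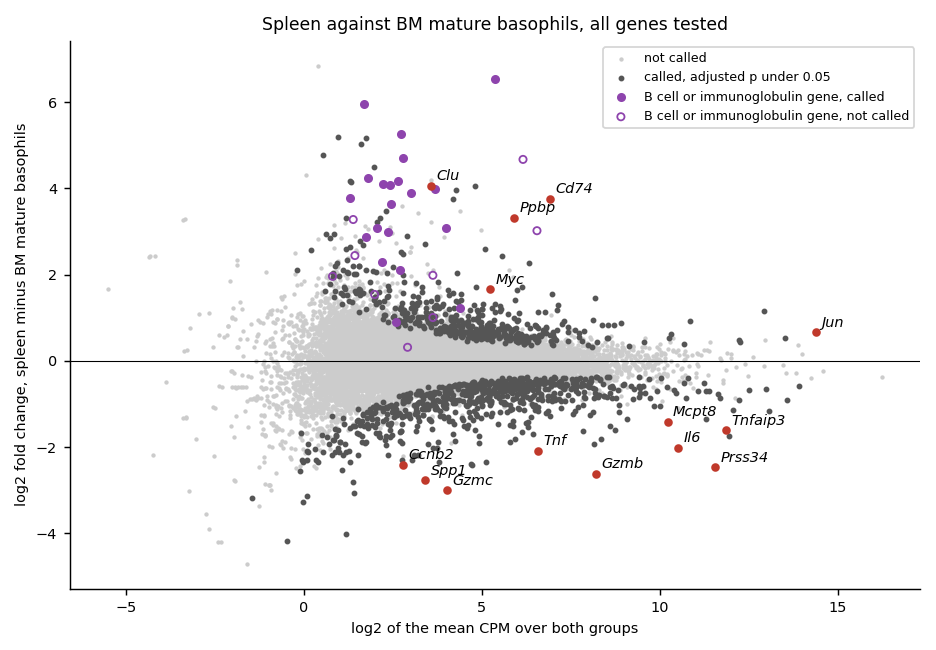
Each point is 1 of the 15083 genes tested, with the log2 of its mean CPM over both groups on the x axis and its log2 fold change, spleen minus BM mature basophils, on the y axis. Dark points are the 1181 called genes, purple points are B cell and immunoglobulin genes, and red points are named genes. Proteases and cytokines lie below 0, and the B cell and immunoglobulin genes lie above it.

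Granule proteases. Prss34, Gzmb, Gzmc, Mcpt8 and Ctsg, which encode granule serine proteases, and Srgn were lower in spleen than in BM mature basophils, by 5.50-fold for Prss34 and 6.11-fold for Gzmb. Of the 16 tested members of a list of granule proteases and their partners, 6 were called lower and 0 higher (0 higher also at an unadjusted p under 0.05, in DESeq2 and in limma-voom), with 2 positive values among the 16, and the median log2 fold change was -0.82, against 0.0052 over all genes tested. This list, which holds Prss34 and Gzmb, was chosen with earlier results known, so its counts and median describe it and do not test it. The lower calls numbered 4 or 5 without single mature libraries and 8 without BaP replicate 3. Prss34, which encodes the basophil protease mMCP-11, had 5708, 5689 and 3798 CPM in BM1 to BM3 and 883, 909 and 969.8 CPM in SP1 to SP3 (log2 fold change -2.46, SE 0.305, edgeR adjusted p 0.00114). Gzmb, encoding granzyme B, had 624, 350.3 and 552 CPM in the BM and 62.7, 118 and 69.2 CPM in the spleen (log2 -2.61, SE 0.280, edgeR adjusted p 0.000611). No library of one organ reached the range of the other for either gene, although BM3 was the lowest BM library for Prss34 and BM2 for Gzmb.

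Mcpt8, encoding the basophil protease mMCP-8, had 1828, 1738 and 1627 CPM in BM libraries and 553, 757 and 648 CPM in spleen libraries (log2 -1.41, SE 0.243, edgeR adjusted p 0.00606). Gzmc, encoding granzyme C, fell from 28.6 ± 5.36 to 3.56 ± 0.464 CPM (SD of 3 libraries; log2 -3.0, edgeR adjusted p 0.000611). The calls of these 4 genes held whichever library was left out. Ctsg, encoding cathepsin G, and Srgn, encoding the proteoglycan serglycin that packs granule proteases, were also called lower (log2 -1.54 and -0.91, edgeR adjusted p 0.0206 and 0.0249). Their calls rested on more libraries: the adjusted p for Ctsg was 0.0665 to 0.0886 without SP1, SP3, BM1 or BM2, and that for Srgn was 0.0593 to 0.103 without SP1, SP2, SP3, BM1 or BM3. Cpa3, which encodes carboxypeptidase A3, did not pass (578 ± 36.8 against 361 ± 28.1 CPM in the spleen, SD of 3 libraries; edgeR adjusted p 0.126), although its values did not overlap between the organs and it passed with the 6 mature libraries alone (0.000327) and without BaP replicate 3 (0.000178).

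For orientation, Prss34 had 49584, 42584 and 43264 CPM in the 3 pre-basophil libraries and 48653, 45396 and 17009 CPM in those of BaPs, of which BaP replicate 3 was the lowest. Mcpt8 had 10887 to 12449 CPM among pre-basophils and 11980.0, 10618 and 5008 CPM in BaP replicates 1 to 3. Of the 702 genes called lower outside the marker lists, 551 had their lowest group mean in the spleen. A higher mean in pre-basophils than in BM mature basophils was found in 417 of them. Of the 6 called proteases and partners, all had their lowest group mean in the spleen, and 5 had a higher mean in pre-basophils than in BM mature basophils. The exception was Srgn, at 4560.3 CPM in the former and 6260.0 CPM in the latter.

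**Figure D2:**
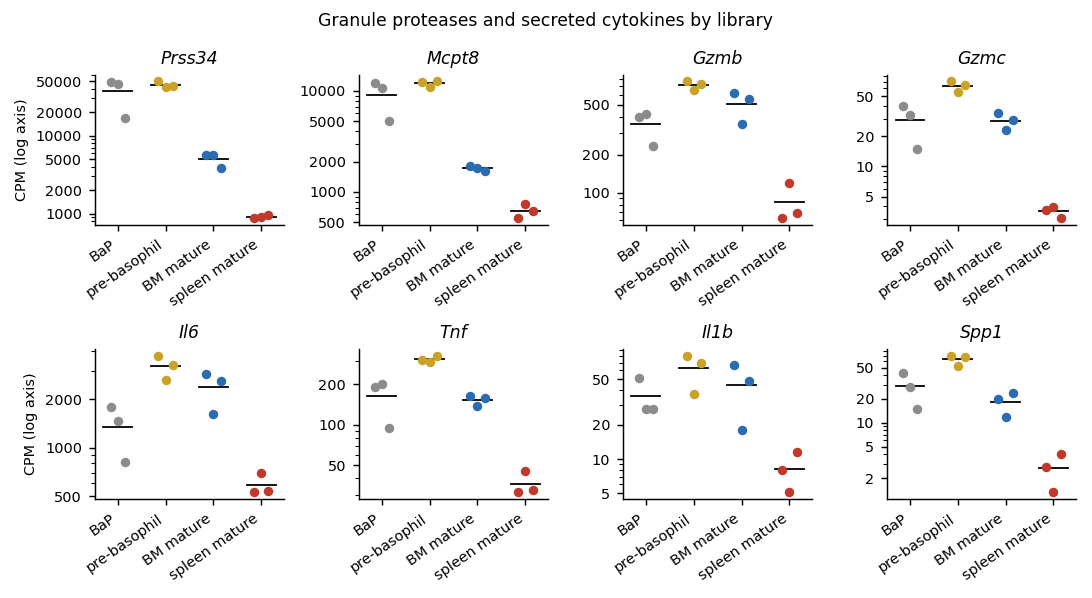
CPM on a log axis for 4 granule protease genes (top) and 4 cytokine genes (bottom) in each library of the 4 groups; points are libraries and the line is the mean of the 3. In all 8 genes the 3 spleen mature libraries lie below the 3 BM mature libraries, for example at 883 to 969.8 against 3798 to 5708 CPM for Prss34.

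Cytokines. Il6, Tnf, Il1b and Spp1 were lower in spleen mature basophils, whereas Il4 was not called. Of 17 tested cytokine and growth factor genes, these 4 were called lower and 0 higher (1 higher at an unadjusted p under 0.05, and 0 in DESeq2 and limma-voom), with a median log2 fold change of -0.43. Without BaP replicate 3, 7 were lower and 1 higher. Il6, encoding interleukin 6, had 2872, 1614 and 2606 CPM in BM1 to BM3 and 528, 697 and 539 CPM in SP1 to SP3 (log2 -2.01, SE 0.271, edgeR adjusted p 0.00221). Tnf, encoding tumour necrosis factor, had 164, 138 and 158 CPM in the BM and 31.4, 45.0 and 32.5 CPM in the spleen (log2 -2.08, SE 0.239, edgeR adjusted p 0.000772). The 2 organs did not overlap in either gene, and BM2 was the lowest BM library in both.

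Il1b, encoding the inflammatory cytokine interleukin 1 beta, had 67.2, 18 and 48.7 CPM in BM libraries and 8, 5.12 and 11.6 CPM in spleen libraries (log2 -2.41, SE 0.456, edgeR adjusted p 0.00927). Spp1, encoding the secreted protein osteopontin, had 19.7, 11.8 and 24.1 CPM against 2.72, 1.32 and 3.98 CPM (log2 -2.76, SE 0.435, edgeR adjusted p 0.00411). The spleen values of Spp1 rest on 55 counts in all. The calls of all 4 cytokine genes held whichever library was left out, at adjusted p of at most 0.0492. Il4, encoding the type 2 cytokine that basophils are best known for, had 121 ± 12.1 CPM in the BM and 118 ± 3.31 CPM in the spleen (SD of 3 libraries; log2 -0.04, SE 0.248, edgeR adjusted p 0.945). Il13, encoding a related type 2 cytokine, had 17.1 ± 6.83 and 9.68 ± 4.72 CPM (SD of 3 libraries) and did not pass (edgeR adjusted p 0.278).

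Chemokines. Of 10 tested chemokine genes, 3 were called lower and 0 higher (0 also at an unadjusted p under 0.05, in DESeq2 and in limma-voom), with a median log2 fold change of -0.49, and 5 were lower without BaP replicate 3. Cxcl3, encoding a neutrophil attractant, had 60.8, 28.3 and 41.0 CPM in BM libraries and 10.2, 8.42 and 6.24 CPM in spleen libraries (log2 -2.38, SE 0.339, edgeR adjusted p 0.0025). Cxcl2, encoding another neutrophil attractant, had 1237 ± 294 and 598 ± 151 CPM (SD of 3 libraries; log2 -1.05, edgeR adjusted p 0.0189), and Ccl3, which attracts several leukocyte types, had 18379 ± 1843 and 12264 ± 946 CPM (log2 -0.58, edgeR adjusted p 0.0284). Cxcl3 kept its call whichever library was left out. The adjusted p for Cxcl2 was 0.0635 to 0.0913 without SP1, SP3, BM1 or BM3, and that for Ccl3 was 0.0549 to 0.103 without SP1, SP2, SP3, BM1 or BM3 and 0.086 with an offset for transcript length and GC content. Ccl4, the neighbour of Ccl3 with a similar function, had 22110.0 ± 2209.5 and 16908 ± 1536 CPM (SD of 3 libraries) and did not pass in edgeR (adjusted p 0.0823), but did in DESeq2 (0.0217), with the 6 mature libraries alone (0.0385) and without BaP replicate 3 (0.0155).

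NF-kB and other feedback genes. Genes that restrain inflammatory signalling were lower in the spleen where they were called. In a list of 26 tested genes of NF-kB inhibitors and subunits, ZFP36 proteins, dual-specificity phosphatases and SOCS proteins, 8 were called lower and 0 higher (2 higher at an unadjusted p under 0.05, and 0 in DESeq2 and limma-voom), but the median log2 fold change was -0.01, as 13 members had positive and 13 negative values. Tnfaip3, encoding the NF-kB inhibitor A20, had 6589, 3826 and 6436 CPM in BM1 to BM3 and 1469, 1562 and 2506 CPM in SP1 to SP3 (log2 -1.61, SE 0.250, edgeR adjusted p 0.00389), and its call held whichever library was left out. Nfkbia, encoding the inhibitor IkBa, had 9989.7 ± 758 and 6337 ± 337 CPM (SD of 3 libraries; log2 -0.66, edgeR adjusted p 0.04).

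Dusp1, encoding a phosphatase of MAP kinases, had 4245 ± 1052 and 2354 ± 442 CPM (SD of 3 libraries; log2 -0.85, edgeR adjusted p 0.0202). Zfp36l1, encoding a protein that binds AU-rich mRNA, Dusp10, encoding another MAP kinase phosphatase, and Cish, encoding a cytokine signalling inhibitor, were lower by log2 differences of -1.27, -1.29 and -1.11 (adjusted p in edgeR 0.0186, 0.0358 and 0.0383). The number of called members was 1 or 2 without SP1, SP2, SP3, BM1 or BM3 and 6 without BM2. Among single genes, the adjusted p without these libraries rose to as much as 0.134 for Nfkbia, 0.0857 for Dusp1, 0.0948 for Zfp36l1, 0.130 for Dusp10 and 0.168 for Cish. Dusp10 and Cish were not called in limma-voom (0.0687 and 0.0544), nor was Dusp10 with library size alone (0.0514). Pim1, encoding a kinase downstream of cytokine receptors, and Nfkbib, encoding IkBb, were the remaining lower genes (log2 -0.59 and -0.47, edgeR adjusted p 0.0353 and 0.0481).

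Near the start of several of these genes lies a κB-type motif (GGG, any 2 bases, then TTTCC), the class of sequence that NF-kB binds, which was searched on both strands in the 250 bases upstream of each annotated start (RefSeq, GRCm38.p6; all 15 called cytokine, chemokine and feedback genes had such a window). It was present in 5 of these 15 genes, against 1.72% of the 9919 tested genes with a window and 1.41% of all 32851 windows. Among all genes with a window, it was present in 2.72% of the 478 called lower and 1.25% of the 320 called higher. Uncalled members of the 3 lists were not compared, so the share among the 15 cannot be tied to the difference between organs. The sequences are shown because these genes were lower in the spleen, are given 5′ to 3′ on the gene's strand, and carry the motif (or its reverse complement, in Tnfaip3 and Nfkbia) in capitals. A match is a description of the letters and was not tested for binding.
Il6 (chr5:30013050-30013099, + strand): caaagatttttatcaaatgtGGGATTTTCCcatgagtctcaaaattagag
Cxcl2 (chr5:90903782-90903850, + strand): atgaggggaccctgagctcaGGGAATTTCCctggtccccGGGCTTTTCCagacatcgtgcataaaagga
Cxcl3 (chr5:90786008-90786057, + strand): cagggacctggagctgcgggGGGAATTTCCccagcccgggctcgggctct
Tnfaip3 (chr10:19015411-19015442, - strand): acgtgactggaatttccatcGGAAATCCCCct
Nfkbia (chr12:55492648-55492696, - strand): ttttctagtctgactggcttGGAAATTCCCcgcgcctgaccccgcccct

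Immediate-early and stress genes. Jun, Junb and Myc were higher in spleen mature basophils, and Fosl1, Ier3 and Maff were lower. In the list of 23 immediate-early genes, all tested, these were the 3 higher and 3 lower calls, and the median log2 fold change was 0.10. Library size alone gave 6 higher and 2 lower, and the fit without BaP replicate 3 gave 7 and 6. The higher calls numbered 3 without SP1 and 1 without any other library, and the lower calls numbered 3 without SP2, 1 without BM2 and 0 without SP1, SP3, BM1 or BM3. The whole list took 8.13 to 9.08% of counts in BM libraries and 10.2 to 11.6% in spleen libraries. Jun, encoding an AP-1 subunit, had 16156, 16228 and 17019 CPM in BM1 to BM3 and 22654, 26600.0 and 29532 CPM in SP1 to SP3 (log2 0.67, SE 0.162, edgeR adjusted p 0.0254). Myc, encoding a growth-promoting transcription factor, had 22.0, 13.0 and 19.7 CPM in BM libraries and 57.9, 48.0 and 66.5 CPM in spleen libraries (log2 1.66, SE 0.189, edgeR adjusted p 0.000747). The organs did not overlap in either gene, and Myc also had a higher mean in BaPs (41.0 CPM) than in BM mature basophils.

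Junb, encoding another AP-1 subunit, had 9635 ± 459.9 and 13829 ± 2261 CPM (SD of 3 libraries; log2 0.52, edgeR adjusted p 0.0291). Fosl1, encoding the AP-1 subunit FRA1, and Ier3, a gene induced by NF-kB, were lower by log2 differences of -0.90 and -0.76 (adjusted p in edgeR 0.0449 and 0.0431). Myc kept its call whichever library was left out. The other 4 did not: without SP3, BM1, BM2 or BM3 (and SP2 for Jun and Junb, SP1 for Fosl1 and Ier3) the adjusted p was 0.0673 to 0.107 for Jun, 0.0638 to 0.122 for Junb, 0.0624 to 0.170 for Fosl1 and 0.0716 to 0.165 for Ier3. Junb also missed the threshold under DEGES scaling (0.0541), and Fosl1 and Ier3 under RLE size factors (0.0504 and 0.05). Fos and Egr1, which encode 2 further immediate-early transcription factors, did not pass (edgeR adjusted p 0.799 and 0.209). Fos had 8193 ± 1391 and 7526 ± 2249 CPM, and Egr1 13172 ± 1099 and 17065 ± 2411 CPM (SD of 3 libraries), and Egr1 passed with library size alone (0.0441) and without BaP replicate 3 (0.0172).

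Txnip, encoding a thioredoxin-binding protein that responds to glucose, had 118, 198 and 145 CPM in BM libraries and 469, 373 and 433 CPM in spleen libraries (log2 1.47, SE 0.177, edgeR adjusted p 0.00108; chosen after its values were seen). It was separated between the organs and kept its call whichever library was left out. Of 16 tested heat-shock chaperone genes 1 was called, Dnajb1 (6.25%, against 7.83% of all genes tested). Lower calls in this list numbered 0 in edgeR and limma-voom, 1 in DESeq2, 2 without BaP replicate 3 and 2 at an unadjusted p under 0.05. Dnajb1, encoding an HSP40 co-chaperone, had 1281 ± 182 and 2439 ± 406 CPM (SD of 3 libraries, log2 0.93, edgeR adjusted p 0.0118). Its adjusted p was 0.0554 to 0.0677 without SP3, BM1 or BM2.

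**Figure D3:**
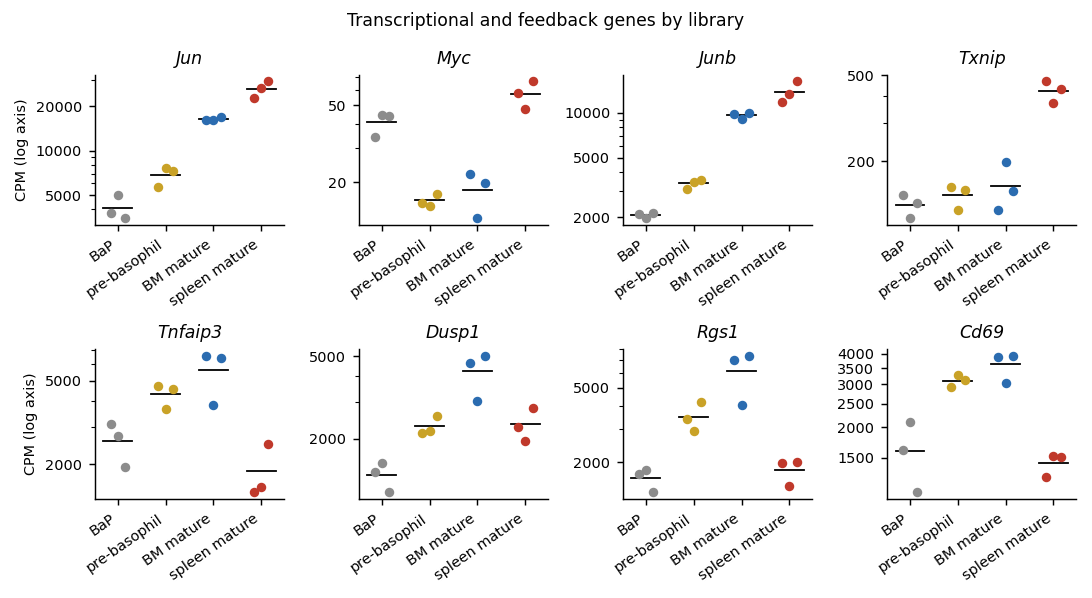
CPM on a log axis for 8 genes of transcription and feedback in each library of the 4 groups; points are libraries and the line is the mean of the 3. Jun, Myc, Junb and Txnip (top) lie higher, and Tnfaip3, Dusp1, Rgs1 and Cd69 (bottom) lie lower, in all 3 spleen mature than in all 3 BM mature libraries.

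IgE receptor and its signalling chain. The 3 chains of the high-affinity IgE receptor had lower levels in the spleen, and 2 of them were called. Fcer1a, encoding the IgE-binding alpha chain, had 903 ± 41.0 and 524 ± 54.0 CPM (SD of 3 libraries) and did not pass in edgeR (log2 -0.78, adjusted p 0.0733), but did in DESeq2 (0.0281), with no filter (0.0243), with the replicate block (0.0307), with the 6 mature libraries alone (0.000124) and without BaP replicate 3 (3.93e-05). Ms4a2, encoding the beta chain, had 560.1, 615 and 529 CPM in the BM and 310.4, 329.8 and 297 CPM in the spleen (log2 -0.86, SE 0.229, edgeR adjusted p 0.0372). Fcer1g, encoding the common gamma chain, had 1646 ± 115 and 1034 ± 127 CPM (SD of 3 libraries; log2 -0.67, edgeR adjusted p 0.0335). Both calls ended whichever 1 of the 6 libraries was left out (adjusted p up to 0.138 for Ms4a2 and 0.144 for Fcer1g), and that of Ms4a2 also with the length and GC offset (0.0578).

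Of the 33 tested genes of IgE and IgG receptor signalling, 3 were called lower (Orai1, encoding a calcium channel subunit, was the remaining one) and 3 higher, and each fit with 1 library left out called 1 higher and 0 lower, whereas the fit without BaP replicate 3 called 7 in each direction. Ptpn6, encoding the inhibitory phosphatase SHP-1, had 74.5, 85.1 and 82.4 CPM in BM libraries and 130.1, 135 and 129.9 CPM in spleen libraries (log2 0.71, SE 0.105, edgeR adjusted p 0.00293), and its call held whichever library was left out. The remaining higher genes, Plcg1 and Plcg2, encode phospholipase C gamma isoforms that act downstream of the receptor (log2 0.74 and 0.55, edgeR adjusted p 0.0478 and 0.0335). The call of Plcg1 ended whichever library was left out (adjusted p 0.0845 to 0.169) and under DEGES scaling (0.0572), the length and GC offset (0.0729) and the exclusion of predicted genes (0.0525).

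Trafficking, adhesion and surface receptors. Cd69, encoding a lectin that retains cells in tissue by opposing S1P receptor 1, had 3880.4, 3054 and 3937 CPM in BM1 to BM3 and 1252, 1520.5 and 1508 CPM in SP1 to SP3 (log2 -1.34, SE 0.197, edgeR adjusted p 0.00274). Ccrl2, encoding a chemerin-binding receptor, fell from 159.7 ± 27.4 to 71.9 ± 12.9 CPM (SD of 3 libraries; log2 -1.15, edgeR adjusted p 0.00401). These were the 2 calls among 19 trafficking receptor genes (10.5%, against 7.83% of all genes tested). In this list 0 were higher in edgeR, DESeq2 and limma-voom, 2 were higher at an unadjusted p under 0.05, and 2 were higher and 5 lower without BaP replicate 3. Cxcr4, encoding the receptor for the BM chemokine CXCL12, had 96.7, 57.6 and 110.1 CPM in the BM and 52.6, 84.2 and 93.6 CPM in the spleen, so the organs overlapped (edgeR adjusted p 0.69). S1pr1, encoding the receptor for sphingosine 1-phosphate in blood, had 20.2 ± 0.453 and 24.0 ± 2.52 CPM (SD of 3 libraries; edgeR adjusted p 0.64).

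Rgs1, encoding a regulator that dampens chemokine receptor signals, had 6974, 4041 and 7396 CPM in the BM and 1979.7, 1506 and 2009 CPM in the spleen (log2 -1.74, SE 0.219, edgeR adjusted p 0.00122). Icam1, encoding an adhesion ligand for leukocyte integrins, had 72.9, 73.6 and 72.3 CPM in BM libraries and 27.8, 33.5 and 35.3 CPM in spleen libraries (log2 -1.18, SE 0.145, edgeR adjusted p 0.00112). Cd69, Ccrl2, Rgs1 and Icam1 kept their calls whichever library was left out. Like 1178 of the 1181 called genes, they showed no overlap between organs. Of the 25 tested integrin and adhesion genes, Itgb2, the integrin beta 2 chain, was also lower (log2 -0.52, edgeR adjusted p 0.0136), and Itga5, the alpha 5 chain of the fibronectin receptor, was higher (12 ± 2.41 and 24.4 ± 1.05 CPM, SD of 3 libraries; log2 1.01, edgeR adjusted p 0.0117). Without SP3 or BM1 the adjusted p was 0.0534 to 0.062 for Itga5, and without these or BM2 it was 0.0576 to 0.0746 for Itgb2, which also missed the threshold with library size alone (0.0691). Without BaP replicate 3 this list held 7 higher and 3 lower calls.

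Clec4e, encoding the pattern receptor MINCLE, fell from 58.4 ± 20.7 to 11.4 ± 1.56 CPM (SD of 3 libraries, log2 -2.34, edgeR adjusted p 0.00221). It was the 1 call of 12 pattern and complement receptors (8.33%, against 7.83% of all genes tested). In this list 0 were higher in edgeR, DESeq2 and limma-voom, 2 were higher at an unadjusted p under 0.05, and 2 were higher and 3 lower without BaP replicate 3. Lilr4b and Lilrb4a, near-identical copies that encode surface receptors and can share reads, were lower by log2 differences of -0.68 and -0.51 (adjusted p in edgeR 0.00783 and 0.0233). With Clec12a they made up the 3 calls among 31 inhibitory and activating surface receptor genes (9.68%, against 7.83% of all genes tested). That list had 15 positive and 16 negative values, and 3 genes were higher at an unadjusted p under 0.05. Without BaP replicate 3 it held 3 higher and 7 lower calls. Among 28 tested cytokine receptor genes, which include the IL-3 receptor chains, edgeR and limma-voom called 0 and DESeq2 called 1, with 6 genes at an unadjusted p under 0.05 (3 higher and 3 lower). Csf2rb, encoding the beta chain shared by the receptors for IL-3, IL-5 and GM-CSF, had 1233 ± 47.5 and 1443 ± 30.1 CPM (SD of 3 libraries; edgeR adjusted p 0.37). The call of Clec4e and that of Lilr4b held whichever library was left out, whereas Lilrb4a had an adjusted p of 0.0777 to 0.0987 without SP1, SP3, BM1 or BM3.

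Genes of the sort were checked next. Clec12a, a gate marker on which mature cells of both organs were taken as low, still had 39.1, 37.1 and 30.7 CPM in BM libraries and 12.3, 15.2 and 10.9 CPM in spleen libraries (log2 -1.47, SE 0.299, edgeR adjusted p 0.0124; 0.0711 without SP3 and 0.0568 without BM1). Pre-basophils, the CLEC12A-high cells, had 235 CPM on average. Cd9, Cd200r3, Itga2 (encoding CD49b) and Cd34 were not called, with log2 differences of -0.18, -0.46, -0.31 and 0.13 (adjusted p in edgeR 0.407, 0.147, 0.396 and 0.798). Cd200r3 passed without BaP replicate 3 (0.00114). Kit, encoding c-Kit, was near the floor, with 6 counts over the BM and 16 over the spleen libraries.

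Cell cycle. Of 46 cell cycle genes, all tested, 20 were called lower in the spleen and 0 higher (1 higher at an unadjusted p under 0.05, and 0 in DESeq2 and limma-voom), and 43 had a negative log2 fold change, with a median of -0.96. The number of lower calls was 8 without SP3 or BM1, 11 without SP2 or BM2, 17 without SP1 and 18 without BM3, and it was 24 in DESeq2, 10 in limma-voom and 28 (beside 1 higher) without BaP replicate 3. Mki67, encoding the proliferation antigen Ki-67, had 109, 97.9 and 54.1 CPM in BM1 to BM3 and 29.3, 18.3 and 22.6 CPM in SP1 to SP3 (log2 -1.89, SE 0.276, edgeR adjusted p 0.00274). Ccnb2, encoding cyclin B2, had 13.7, 11.5 and 9.36 CPM in the BM and 2.08, 2.15 and 2.12 CPM in the spleen (log2 -2.41, SE 0.253, edgeR adjusted p 0.000611). BM3 was the lowest BM library in both, and still above every spleen library.

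Cenpe and Cenpf, encoding centromere proteins, Ube2c, encoding a mitotic ubiquitin-conjugating enzyme, and Top2a, encoding topoisomerase II alpha, fell by 2.29, 2.18, 2.02 and 1.56 on the log2 scale (edgeR adjusted p 0.00294, 0.000611, 0.00541 and 0.0025). These 4, Mki67 and Ccnb2 kept their calls whichever library was left out. Cdk1, encoding the mitotic kinase, and Pcna, encoding the replication clamp, were also lower (log2 -1.73 and -0.90, edgeR adjusted p 0.0219 and 0.0133), but their adjusted p reached 0.104 without SP3, BM1 or BM2 for Cdk1 and 0.0679 without SP2, SP3, BM1 or BM3 for Pcna, and Cdk1 was not called in limma-voom (0.0853). Cdkn2c, encoding a CDK inhibitor, and Ccng2, encoding the atypical cyclin G2, were the 2 calls among 13 genes of cyclin D, CDK inhibitors and relatives (log2 -1.19 and -0.49, edgeR adjusted p 0.0488 and 0.0267), and both ended without SP3, BM1, BM2 or BM3 (adjusted p up to 0.183) and with library size alone (0.0559 and 0.0704), as did Cdkn2c under RLE and DEGES scaling (0.0548 and 0.0516) and in limma-voom (0.124).

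For orientation, the mean level of all 20 called genes was higher in BaPs and in pre-basophils than in BM mature basophils, and lowest in the spleen. Of the 702 genes called lower outside the marker lists, 551 were lowest in the spleen and 417 were higher in pre-basophils than in BM mature basophils. Mki67 averaged 707 CPM among pre-basophil libraries and stood at 804, 638 and 431 CPM in BaP replicates 1 to 3. The whole list of 46 took 0.0454 to 0.0630% of counts in BM mature and 0.0292 to 0.0352% in spleen mature libraries. Counts in the spleen were low for single genes, such as 42 in all for Ccnb2.

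The cell cycle homology motif TTTGAA and the CCAAT box, both known from promoters of mitotic genes, were searched in the same upstream windows, which 16 of the 20 called genes had. TTTGAA was present in 8 of the 16, against 14.3% of the 9919 tested genes with a window and 16% of all windows. CCAAT was present in 14 of the 16, against 40.8% of those tested genes and 33.8% of all windows. All genes called lower were near these shares, at 16.7% for TTTGAA and 43.7% for CCAAT (12.8% and 39.1% of genes called higher). Uncalled cell cycle genes were not compared, so the shares among the 16 cannot be tied to the difference between organs. Stretches around TTTGAA in Ccnb2, Ube2c and Mki67 are shown as examples among the genes that stayed called whichever library was left out (Top2a, which also holds the motif, is a further one), and the motif or its reverse complement is in capitals.
Ccnb2 (chr9:70421696-70421741, - strand): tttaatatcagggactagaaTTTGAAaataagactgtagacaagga
Ube2c (chr2:164769880-164769925, + strand): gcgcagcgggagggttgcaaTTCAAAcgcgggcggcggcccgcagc
Mki67 (chr7:135716452-135716515, - strand): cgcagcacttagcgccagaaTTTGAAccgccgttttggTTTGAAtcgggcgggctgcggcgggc

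**Figure D4:**
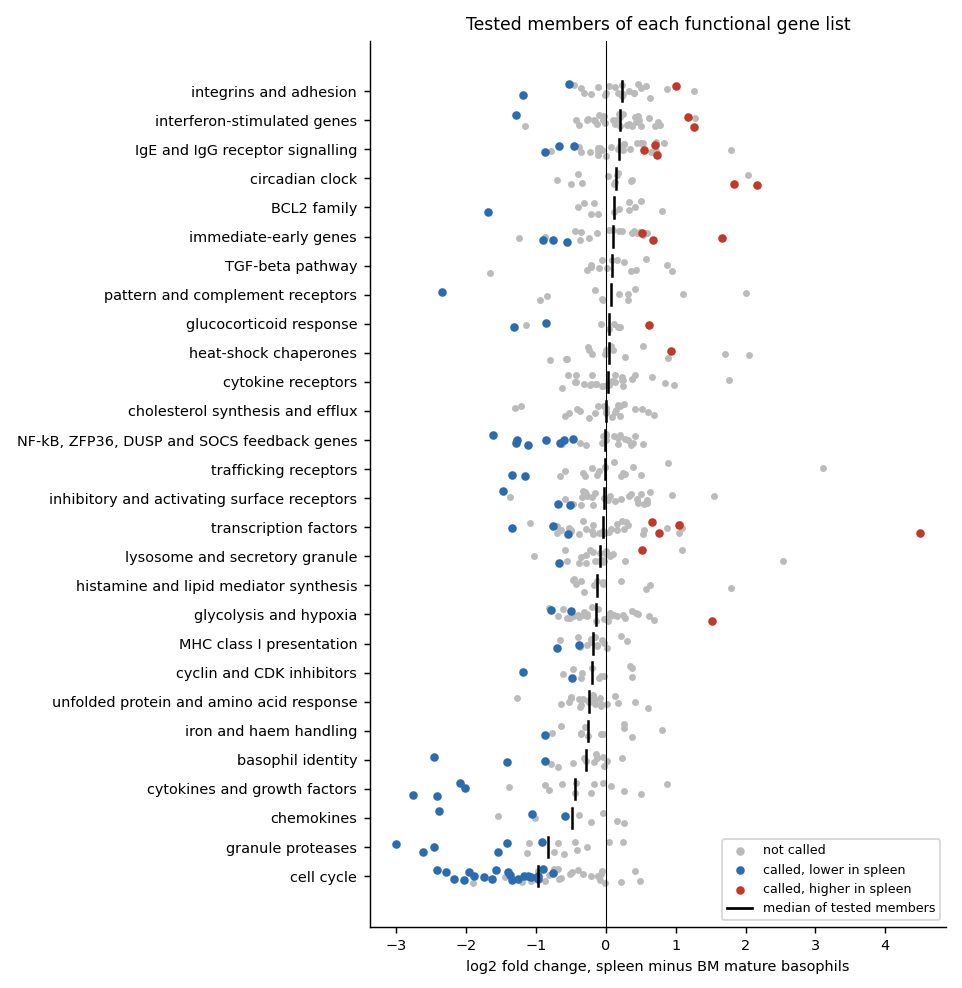
Log2 fold change, spleen minus BM mature basophils, of each tested member of 28 functional gene lists, one row for each list, ordered by the median (black line); blue and red points are genes called lower and higher, grey points were not called. Cell cycle genes (median -0.96) and granule proteases (median -0.82) lie at the bottom, and the other medians are within 0.5 of 0.

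Transcription factors. Of 40 tested transcription factor genes, 4 were called higher and 3 lower, with a median log2 fold change of -0.04, and without single libraries these counts were 0 to 3 and 1 to 3, against 8 and 5 without BaP replicate 3. Myb, encoding a factor of haematopoietic progenitors, had 17.5, 20 and 11.6 CPM in BM libraries and 8.16, 6.93 and 4.25 CPM in spleen libraries (log2 -1.34, SE 0.274, edgeR adjusted p 0.0127). Hlx, encoding a homeobox protein, had 18.1, 11.5 and 18.3 CPM in the BM and 33.8, 29.7 and 36.3 CPM in the spleen (log2 1.05, SE 0.206, edgeR adjusted p 0.0107). Both genes separated the organs, and their adjusted p was 0.0564 for Hlx without SP3 and 0.0568 to 0.0679 for Myb without SP3, BM1 or BM2. Batf, encoding a basic leucine zipper protein, was higher (log2 0.77, edgeR adjusted p 0.0389), with adjusted p of up to 0.145 without SP1, SP3, BM1, BM2 or BM3. Nfe2, encoding a megakaryocytic and erythroid factor, was also higher (log2 0.66, edgeR adjusted p 0.0333), and Runx2, encoding a Runt factor, and Lmo2, encoding an adaptor of GATA complexes, were lower (log2 -0.75 and -0.53, edgeR adjusted p 0.00606 and 0.0405). Irf4, the remaining higher one, also belongs to the plasma cell markers and is described with them. Gata2, encoding a factor that basophils require, had 2262 ± 230.5 and 1855 ± 200.3 CPM (SD of 3 libraries) and was not called (edgeR adjusted p 0.399).

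Other called genes belonged to several small groups. Actb (beta-actin) and H3f3b (histone H3.3), among the 10 largest differences in CPM, fell by 1.17 and 0.89 on the log2 scale (edgeR adjusted p 0.00345 and 0.0133), and H3f3b lost its call without SP3, BM1 or BM3 (0.0523 to 0.0661). Gadd45a, encoding a stress sensor, Pmaip1, encoding the pro-apoptotic protein NOXA, Acod1, encoding the itaconate-producing enzyme, and Fth1, encoding ferritin heavy chain, fell by 1.92, 1.69, 1.81 and 0.87 (edgeR adjusted p 0.00927, 0.00927, 0.00499 and 0.00469). Gadd45a and Acod1 were chosen after their values were seen, and without BM1 the adjusted p of Gadd45a and Pmaip1 was 0.0504. H2-D1 and H2-T23, which encode a classical and a non-classical MHC class I molecule and have near-identical relatives, fell by 0.69 and 0.38 (edgeR adjusted p 0.0139 and 0.0358), with adjusted p of up to 0.058 and 0.124 without single libraries and 0.147 for H2-T23 with library size alone. They were the 2 calls of 16 genes of MHC class I presentation (12.5%, against 7.83% of all genes tested). Pmaip1 was the 1 call of 13 BCL2 family genes (7.69%). Fth1 was the 1 call of 13 genes of iron and haem handling (7.69%).

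Of 35 interferon-stimulated genes, 2 were called higher (Slfn2 and Igtp) and 1 lower (Gbp2), a share of 8.57% against 7.83% of all genes tested. Without single libraries these counts were 0 or 1 in each direction, and without BaP replicate 3 they were 4 and 2. Igtp, encoding another interferon-induced GTPase, had a log2 difference of 1.27 (edgeR adjusted p 0.0374; 0.0511 to 0.133 whichever library was left out and 0.0606 in limma-voom). Gbp2, encoding an interferon-induced GTPase, had 22.9, 15.8 and 24.5 CPM in BM libraries and 8.48, 11.2 and 6.37 CPM in spleen libraries (log2 -1.29, edgeR adjusted p 0.0121; 0.0526 to 0.0686 without SP3, BM1 or BM3). Slfn2, a gene of the Schlafen family that interferon induces, had 87.2, 80.9 and 85.0 CPM in BM libraries and 185, 182 and 204 CPM in spleen libraries (log2 1.17, SE 0.230, edgeR adjusted p 0.0107). The clock genes Per2 and Nr1d2, whose products repress transcription in the circadian cycle, had 2.95 ± 1.51 and 2.08 ± 1.09 CPM in the BM and 11.1 ± 2.84 and 9.20 ± 1.64 CPM in the spleen (SD of 3 libraries; log2 1.84 and 2.17, edgeR adjusted p 0.00896 and 0.0293). They were the 2 calls of 14 circadian clock genes (0 lower in edgeR, DESeq2 and limma-voom, 1 at an unadjusted p under 0.05, and 3 higher and 1 lower without BaP replicate 3). The hour at which organs were taken is not stated. Without BM1 the adjusted p of Per2 was 0.0526, that of Slfn2 was 0.0514 without BM1 and 0.054 without SP3, and that of Nr1d2 was 0.0577 to 0.111 whichever library was left out.

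Metabolic and hormone-responsive lists held few calls, although without BaP replicate 3 the glycolysis and hypoxia list had 3 higher and 5 lower and the lysosome list 2 and 6. Of 31 genes of glycolysis and hypoxia, 1 was called higher (Egln1) and 2 lower (Ldha and Hif1a), a share of 9.68% against 7.83% of all genes tested. Hif1a, encoding the hypoxia-inducible factor alpha subunit, had 44.9 ± 6.64 and 31.7 ± 0.737 CPM (SD of 3 libraries; log2 -0.50, edgeR adjusted p 0.0474) and was not called under RLE scaling, library size alone, no filter, limma-voom or the length and GC offset (0.0559 to 0.0803). Ldha, encoding lactate dehydrogenase A, had 390.4 ± 33.6 and 226 ± 42.2 CPM (SD of 3 libraries; log2 -0.79, edgeR adjusted p 0.0121), and Egln1, encoding an oxygen-sensing prolyl hydroxylase, had 2.71 ± 0.815 and 7.58 ± 0.616 CPM (log2 1.52, adjusted p 0.0308). Of 9 glucocorticoid-responsive genes 3 were called: Ddit4 and Sgk1, encoding an mTOR inhibitor and a kinase, were lower (log2 -0.85 and -1.31, edgeR adjusted p 0.0246 and 0.0351), and Klf9, encoding a transcription factor, was higher (log2 0.62, adjusted p 0.0249). In the list of 25 lysosome genes, 1 was called higher and 1 lower (8%, against 7.83% of all genes tested). Ctsd, encoding the protease cathepsin D, was the higher one (log2 0.53, edgeR adjusted p 0.019). None of these calls held in every fit without 1 library: the adjusted p was 0.0524 to 0.0704 for Ldha without SP3 or BM2, 0.0543 to 0.106 for Ctsd without SP2, SP3 or BM1, and up to 0.166 for Hif1a, 0.119 for Egln1, 0.101 for Ddit4, 0.142 for Sgk1 and 0.107 for Klf9 without most single libraries.

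Lists without a call are given as counts. Without BaP replicate 3 they did hold calls: 3 higher and 3 lower among the cytokine receptors, 2 and 2 in histamine and lipid mediator synthesis, 0 and 1 in cholesterol genes, 3 and 0 in the TGF-beta pathway, and 0 and 7 in the unfolded protein response. EdgeR and limma-voom called 0 of 13 genes of histamine and lipid mediator synthesis (0 in DESeq2, 3 at an unadjusted p under 0.05) and 0 of 24 genes of cholesterol synthesis and efflux (1 in DESeq2, 4 at an unadjusted p under 0.05). EdgeR also called 0 of 25 genes of the unfolded protein response (1 in DESeq2, 0 in limma-voom, 7 at an unadjusted p under 0.05) and 0 of 15 TGF-beta pathway genes (1 each in DESeq2 and limma-voom, 4 at an unadjusted p under 0.05). Hdc, encoding the enzyme that makes histamine, had 2810.4, 1476 and 2452 CPM in BM libraries and 1693, 2105 and 2379.9 CPM in spleen libraries, which overlapped (log2 -0.13, SE 0.278, edgeR adjusted p 0.826).

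B cell and immunoglobulin genes were marked apart. All 23 tested genes of a B cell list were higher in every spleen than in every BM library, 16 of them were called higher and 0 lower (0 also at an unadjusted p under 0.05), and their median log2 fold change was 3.07. DESeq2 called 8 of them, limma-voom 15, fits without 1 library 4 to 9, and the fit without BaP replicate 3 all 23. Cd79a, encoding a chain of the B cell receptor, had 3.22 ± 1.29 and 28.7 ± 12 CPM (SD of 3 libraries; edgeR adjusted p 0.0258; 0.0599 to 0.106 whichever library was left out), and Ighm, encoding the IgM heavy chain, had 20.2 ± 6.34 and 167 ± 61.3 CPM (SD of 3 libraries; edgeR adjusted p 0.0606), and passed with the 6 mature libraries alone (1.95e-06), with no filter (0.00628), with the replicate block (0.0231) and without BaP replicate 3 (2.86e-06).

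Of the 190 immunoglobulin genes in the table, 11 were tested and 7 called higher (1 in DESeq2, 6 in limma-voom, 2 to 7 without single libraries, and 10 without BaP replicate 3). Igkv8-27, a kappa variable segment, was at 0, 0 and 2.06 CPM in the BM and at 62.9, 176 and 6.24 CPM in the spleen, so its level differed widely among the spleen pools (edgeR adjusted p 0.00896, 0.0522 without BM1, 0.0972 in DESeq2 and 0.296 in limma-voom). The B cell and immunoglobulin genes together took 0.00697 to 0.0104% of counts in BM libraries and 0.0437 to 0.0893% in spleen libraries, and in BaPs 0.00711 and 0.00768% in replicates 1 and 2 but 0.111% in replicate 3. Leaving these genes out of the table gave 1150 calls, all of which were among the 1181. Their part in the differences of other genes was not tested.

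Most MHC class II genes, which B cells and other antigen-presenting cells express, moved in the same direction, with 8 positive and 3 negative log2 fold changes. In this list 3 members were lower in every spleen than in every BM library. Of 11 tested, 7 were called higher and 0 lower (1 lower at an unadjusted p under 0.05, in DESeq2 and without BaP replicate 3, 0 in limma-voom), and Cd74, encoding the invariant chain, had 20.4, 7.01 and 22.5 CPM in the BM and 313, 174 and 192 CPM in the spleen (log2 3.76, SE 0.589, edgeR adjusted p 0.00398). H2-Oa and H2-Ob, members that encode the DO peptide-loading regulator, had 118 ± 1.66 and 71.4 ± 4.13 CPM in the BM and 73.7 ± 2.97 and 61.0 ± 5.83 CPM in the spleen (SD of 3 libraries) and were not called (edgeR adjusted p 0.0813 and 0.433). H2-Oa was lower with no filter (0.043), in DESeq2 (0.0447), with the 6 mature libraries alone (0.000287) and without BaP replicate 3 (4.97e-05). The list took 0.0213 to 0.0216% of counts in BM and 0.0436 to 0.0690% in spleen libraries. Plasma cell genes were low: Mzb1 and Irf4 had 2 and 4 counts over the BM and 115 and 149 over the spleen libraries, and both were called (edgeR adjusted p 0.0314 and 0.0289), but the call of Mzb1 ended whichever library was left out (up to 0.115) and that of Irf4 without SP1, SP3, BM1, BM2 or BM3 (up to 0.110).

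Clu, Myl9, Gp5 and Parvb had the largest log2 fold changes among called genes outside the marker lists that did not overlap and averaged at least 10 CPM in the spleen, and all are known to be expressed in platelets. Clu, encoding clusterin, had 2.55, 0.250 and 1.31 CPM in BM1 to BM3 and 15, 39.6 and 12.1 CPM in SP1 to SP3 (log2 4.07, SE 0.995, edgeR adjusted p 0.0268). Parvb, encoding the focal adhesion protein beta-parvin, had 2.23, 3.51 and 2.62 CPM and 10.7, 31.2 and 13.4 CPM (log2 2.70, SE 0.396, edgeR adjusted p 0.00274), and was the 1 of the 4 to keep its call whichever library was left out. SP2 was the highest library in all 4 genes. Without single libraries the adjusted p reached 0.106 for Clu, 0.101 for Myl9 and 0.143 for Gp5. Clu was not called in DESeq2 (0.0961) or limma-voom (0.0516), nor Gp5 in limma-voom (0.0896) or with the length and GC offset (0.0534).

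The platelet marker list moved alongside. Of its 9 genes, 8 had a positive log2 fold change and 2 were called higher (0 lower, also at an unadjusted p under 0.05), and 6 without BaP replicate 3. Ppbp, encoding a platelet chemokine, had 11.5, 11.0 and 10.3 CPM in the BM and 79.4, 175 and 73.4 CPM in the spleen (log2 3.32, edgeR adjusted p 0.0491, 0.0760 to 0.156 whichever library was left out, and 0.0529 with library size alone), whereas Pf4, encoding platelet factor 4, had 109.8, 21.0 and 15 CPM in the BM and 43.4, 43.9 and 30.1 CPM in the spleen (edgeR adjusted p 0.903). Without Itga2b, which had over 500 CPM in every mature basophil library, the list took 0.00283 to 0.0120% of counts in BM and 0.0132 to 0.0295% in spleen libraries, highest in SP2. Its part in the differences of Clu, Myl9, Gp5 and Parvb was not tested.

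Few markers of the remaining cell types were called. EdgeR called 0 of 12 T cell, 0 of 2 dendritic cell and 0 of 4 eosinophil genes, with 0, 0 and 2 at an unadjusted p under 0.05, and DESeq2 and limma-voom called 0 in each. Of 11 monocyte and macrophage genes edgeR called 0, and DESeq2 and limma-voom called 1 each, with 2 genes in each direction at an unadjusted p under 0.05. Of 7 red cell genes none of the 3 tools called any (1 at an unadjusted p under 0.05). Mpo, encoding the neutrophil granule enzyme myeloperoxidase, was lower in the spleen (47.1 ± 21.6 and 13.9 ± 2.44 CPM, SD of 3 libraries; edgeR adjusted p 0.0262), as was Nkg7, encoding a cytotoxic granule protein (66.3 ± 9.74 and 41.9 ± 7.16 CPM; adjusted p 0.0315), and the adjusted p reached 0.102 and 0.135 without single libraries. Mpo was the 1 call of 13 neutrophil genes (7.69%), of which 6 had positive and 7 negative log2 fold changes. Nkg7 was the 1 call of 11 NK cell genes (9.09%), of which 2 had positive and 9 negative values. Both shares were near the 7.83% of all genes tested. Mpo was not called in limma-voom (0.0882), nor Nkg7 with library size alone (0.0938). In BaP replicates 1 to 3, Mpo had 1792, 1402 and 562 CPM and Nkg7 had 428, 326 and 485 CPM. Single tested genes of B cell precursors and mast cells were not called. Without BaP replicate 3, the T cell list held 2 higher calls, the monocyte and macrophage list 1 in each direction and the eosinophil list 1 lower call.

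**Figure D5:**
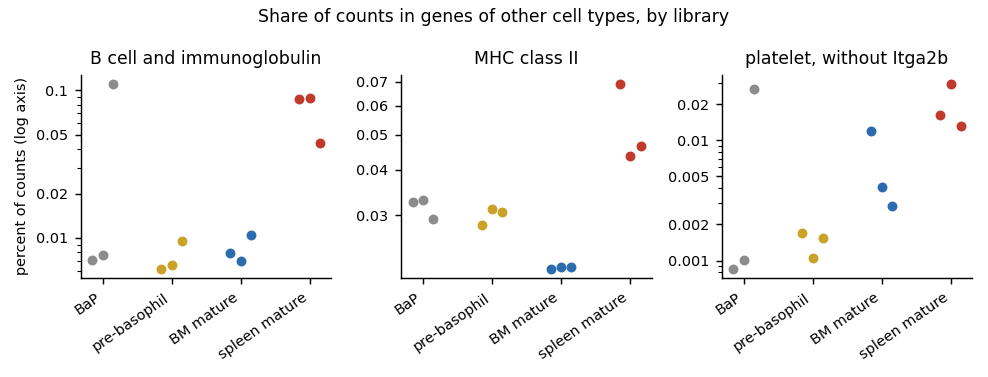
Percent of all counts, on a log axis, that fell in B cell and immunoglobulin genes (left), MHC class II genes (middle) and platelet genes without Itga2b (right) in each library of the 4 groups. In each panel the 3 spleen mature libraries lie above the 3 BM mature libraries, for example at 0.0437 to 0.0893% against 0.00697 to 0.0104% on the left.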

How the data were processed

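From lysates of sorted cells the authors bound mRNA to oligo-dT beads, amplified the cDNA by the TAS-Seq workflow, trimmed reads with Cutadapt 3.4, mapped them with Bowtie2 2.4.2 to reference RNA and deposited raw read counts per gene symbol. The study's methods name GRCm38 for this step and the submitters' processing notes name GRCm39. Strand use, reads with several matches and molecular identifiers are not given in the sources used here, so near-identical, overlapping and antisense genes are uncertain, and amplified copies count as reads.

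Genes were filtered with filterByExpr, scaled by TMM and fitted over all 12 libraries with a coefficient per group (edgeR 4.0.16, limma 3.58.1 and DESeq2 1.42.0 in R 4.3.3). Spleen was tested against BM mature basophils with the quasi-likelihood F test, and p-values were adjusted over all genes tested. The procedure was tested on simulated data. The study's package TCC was not used here; its DEGES scaling was rebuilt as an alternative. Replicates differed by more than sampling noise (chi-square per degree of freedom 4.31 to 11.2 over genes that reached 20 counts between the pair).

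Gene lists, their members and the genes named were chosen with earlier results of these data known. Named were genes of the sort, Prss34, Il6, Gzmb and Spp1; the 10 largest and 10 smallest log2 fold changes among called genes outside the marker lists that did not overlap and averaged 10 CPM or more in one group (5 and 2 of these were predicted genes and only counted); the 10 largest differences in CPM; up to 4 called members of each list; and the 3 marker genes with most spleen counts. Others were chosen after their values were seen, among them Mki67, Top2a, Cd79a, Fcer1a, Cpa3, Il4, Il13, Ccl4, Fos, Egr1, Cxcr4, S1pr1, Srgn, Dusp1, Gata2, Cdk1, Pcna, Csf2rb, Plcg2, Pim1, Nfkbib, Nfe2, Runx2 and Lmo2. Some genes under these rules are not reported here. Upstream windows are from RefSeq.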

Additional observations from a re-analysis of the deposited data

How the results depend on the processing

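With only the 6 mature libraries, 2340 genes were called (1072 higher and 1268 lower), which held 1153 of the 1181 genes of the fit to all 12. Without BaP replicate 3, a fit chosen after seeing the data, 2653 genes were called (1176 higher and 1477 lower). Scaling by library size alone gave 428 lower calls, and the test for a change beyond 2-fold gave 11 calls (5 higher and 6 lower). Leaving out 1 mature library gave 241 to 757 calls, 66 to 317 higher and 157 to 440 lower, as fewer samples enter. The count of genes without overlap stayed within 1.5 times of 5089 wherever it was recomputed, which left out DESeq2, limma-voom, the 2-fold test and the block. The other scalings, filters, tools and exclusions gave 937 to 1273 calls. Between spleen and BM libraries, correlations of deviations were 0.0076 to 0.025 for the same replicate number and -0.032 to 0.013 for other pairs. With 3 libraries in each organ, these values cannot decide whether the numbers pair the samples. With the replicate block, 1703 genes were called (720 higher and 983 lower), which included 1173 of the 1181. A length and GC offset, chosen after seeing the data, gave 984 calls (362 higher and 622 lower). Among the named genes followed across these fits, signs turned only in those that were not called. Other genes were not checked for a change of sign. Over the fits without 1 mature library, log2 differences ran from -0.35 to 0.045 for Hdc (0.0028 without SP1), -0.28 to 0.11 for Fos (0.013 without BM3), -0.11 to 0.031 for Il4, -0.43 to 0.016 for Cxcr4 (0.0016 without BM3), -0.041 to 0.32 for Cd34, -0.15 to 1.47 for Cd28 (-0.14 without SP1), -0.29 to 0.056 for Ly6c2, -0.59 to 0.34 for Ncr1, -0.73 to 1.11 for Pf4 and -0.59 to 0.035 for Rag2 (0.012 without SP3). Library size alone turned Hdc to 0.017, Fos to 0.015 and Il4 to 0.095, the length and GC offset turned Il4 to 0.15 and Srebf2 to -0.055, the block turned Ly6c2 to 0.079 and Ncr1 to 0.29, and limma-voom turned Pf4 to 0.38. Depth limits markers such as Kit and Mzb1, which lay at or near the floor in BM libraries.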

Other observations

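Gene families chosen after their values were seen are given as counts, without a test of the family, beside 3.16% of genes tested called higher and 4.67% called lower in the spleen. Of 77 nuclear genes for subunits of the respiratory chain and ATP synthase, 12 were called lower and 0 higher, and 68 had a negative log2 fold change (median -0.24). Among them were Atp5a1, Cox5a, Ndufv2, Sdhd and Uqcrc2. Of 10 septin genes, which encode filament-forming GTPases, 4 were called lower (Septin1, Septin6, Septin7 and Septin8), and of 6 genes of 14-3-3 adaptor proteins 3 were (Ywhab, Ywhae and Ywhaz). Kinesin genes had 7 lower calls of 26 (Kif11, Kif15, Kif18b, Kif20b, Kif22, Kif3a and Kifc1). Kif11 is also in the cell cycle list, so this count is not separate from that list.

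Among aminoacyl-tRNA synthetases, 5 of 34 genes were called higher and 1 lower, with 28 positive values (median 0.22). The shares called higher were near or under that of all genes in 276 Zfp zinc finger genes (10 higher and 0 lower) and in 335 olfactory and vomeronasal receptor genes, which basophils are not known to use (9 higher and 0 lower). Positive values numbered 189 in the former (median 0.20) and 259 in the latter (median 0.34). Olfr76 was the highest of these by the naming rule, with 2.55, 3.51 and 2.25 CPM in BM and 7.52, 4.79 and 20.6 CPM in spleen libraries (log2 2.0, edgeR adjusted p 0.0236). Its call ended in limma-voom (0.0805) and without SP3, BM1, BM2 or BM3 (0.0589 to 0.0997), and its log2 difference was 1.16 without SP3. Cytosolic ribosomal protein genes had 1 higher and 2 lower calls of 83.

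Called genes differed in length by direction. The median transcript length was 3713.5 bases in genes called higher in the spleen, 2200.0 in genes called lower and 3010.0 over all genes tested with a match, and the Spearman correlation of length with the log2 fold change across 14634 genes, which are not independent replicates, was 0.20. For GC content it was 0.024.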
